A study of Mus musculus with 6 samples.

Results

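The genes that make and break down the cyclic nucleotides cAMP and cGMP were compared between VMHpvlm and VMHpvll, neighbouring areas of the ventrolateral part of the ventromedial hypothalamus. Members were all genes of the deposited table whose symbol was Adcy and a number, or Pde, a number and a letter from a to d. This rule found 32 of 47480 genes, 10 adenylyl cyclases and 22 phosphodiesterases. The rule itself used no measured value, but members were chosen with earlier results of these data known. The tissue came from female VgluT2-cre/Ai6 mice in both groups, where Cre is driven by the promoter of the glutamate transporter gene VgluT2 (Slc17a6) and Ai6 is a green fluorescent reporter that Cre switches on. Areas were isolated from frozen sections by laser capture microdissection, so each library holds RNA of every cell type in the captured area. VMHpvlm had 3 libraries and VMHpvll had 3, and each area had a library whose title begins with F19, F20 and KH_161103. The titles end in the area for F19 and F20, and in C (VMHpvlm) or D (VMHpvll) for KH_161103. Libraries whose titles begin alike are called a pair here, and that beginning is their shared title name. The labels used here give no age, and they do not tell whether libraries with a common name came from 1 animal. The p-values therefore describe variation among these libraries, which may be technical. Depth was 7353127 to 11293159 whole reads in VMHpvlm and 7157831 to 11167288 in VMHpvll.

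Adenylyl cyclases make cAMP from ATP, most of them in the plasma membrane under the control of G proteins, calcium and calmodulin. Cyclic AMP acts on protein kinase A, on Epac exchange factors and on ion channels, and in neurons it alters excitability, synaptic strength and transcription through CREB. Phosphodiesterases end the signal by hydrolysing cAMP, cGMP or both, and each family has its own substrate preference, regulators and places in the cell. The ventrolateral ventromedial hypothalamus is known for neurons that respond to ovarian hormones and take part in female sexual behaviour, aggression and energy expenditure.

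Of the tested genes, 6 of 18 phosphodiesterases and 0 of 9 adenylyl cyclases were called by limma, and the difference between these shares was not tested. Pde8b, Pde11a, Pde10a, Pde4b and Pde7b were higher in VMHpvlm, and Pde1c was lower in VMHpvlm. Values are normalised read counts, that is gene counts divided by 1 scaling factor per library. Differences were tested as log2(value + 1) with limma, with the shared title name as a block. The test covered the 14522 genes whose mean was at least 10, and genes with a Benjamini-Hochberg adjusted p below 0.05 were called. Of the 32 members, 27 reached that mean, and 5 of the 27 (18.5%) were called higher in VMHpvlm, beside 10.5% of all tested genes. In the other direction 1 of 27 (3.7%) was called, beside 9.48% of all tested genes. Together 6 of 27 members (22.2%) were called, beside 20% of all tested genes, which is close to the background. The median log2 difference of the tested members was 0.05, and that of all tested genes was 0.0025. Called members higher in VMHpvlm numbered 3 without the F19 pair, 7 without the F20 pair and 2 without the KH_161103 pair. On recovered whole reads, edgeR called 1565 of all tested genes higher and 1406 lower in VMHpvlm, and DESeq2 called 671 and 565. In order of limma p, Adcy9, with an unadjusted p of 0.0512, was number 4359 of the 14522 tested genes. An unadjusted p near 0.05 was thus common among all genes. In such bulk tissue, fewer cells of a type and less RNA per cell cannot be told apart.

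**Figure D1:**
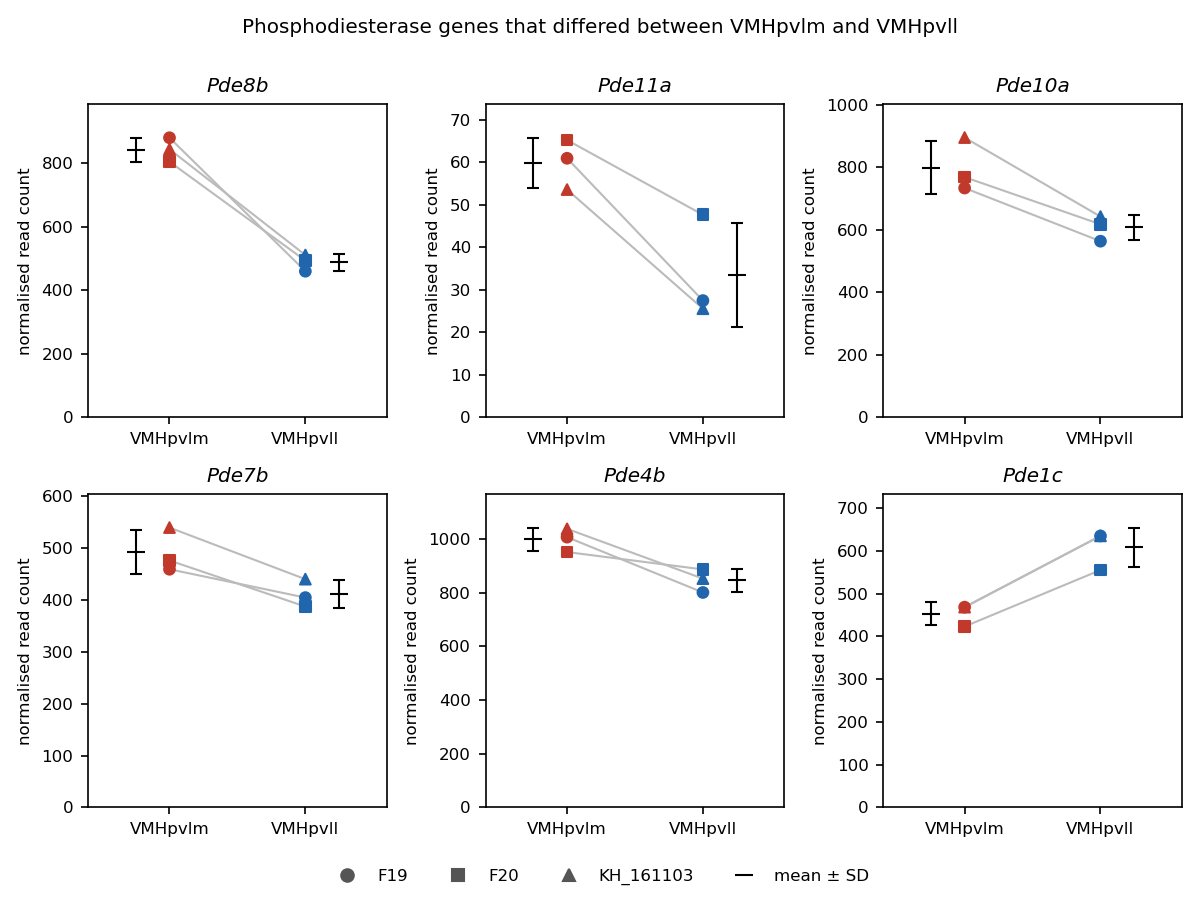
Normalised read counts (y axes, from 0) of the 6 called phosphodiesterase genes in VMHpvlm (red) and VMHpvll (blue), 1 point per library, with mean ± SD beside the points (n = 3 per area) and a line between libraries of the same title name. In each panel the 3 values of 1 area lie apart from the 3 of the other, and Pde1c is the gene with its lower values in VMHpvlm.

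Pde8b encodes a cAMP-specific phosphodiesterase with high affinity for its substrate, known as a brake on cAMP in endocrine cells and found in the brain. It lies on chromosome 13 (mm10, 95024454 to 95250336, minus strand) and is protein-coding. It had 879, 804 and 843 normalised read counts in the F19, F20 and KH_161103 libraries of VMHpvlm, against 459, 493 and 510.3 in those of VMHpvll. All 3 VMHpvlm values lay above all 3 VMHpvll values. The means were 842 ± 37.7 in VMHpvlm and 488 ± 25.8 in VMHpvll (SD, n = 3 each), a 1.73-fold difference. The limma log2 difference was 0.79 (95% interval 0.65 to 0.92), with a Benjamini-Hochberg adjusted p of 9.11e-13. In order of p it was number 151 of 14522 tested genes, and in order of the size of the difference number 748. Its exons overlap those of Gm48420 over 7.6% of their length, and how reads of that stretch were counted is not known. The 250 bases before 1 of its 5 annotated starts (RefSeq, GRCm38.p6, chr13:95250337-95250586, minus strand) are shown with the same stretch for Pde4b, which was also higher in VMHpvlm, and for Pde1c, which was lower there. The windows come from chr4:102421305-102421554 (plus strand, 1 of 4 starts) and chr6:56369635-56369884 (minus strand, 1 of 3 starts). Capitals in Pde4b mark CGTCA, the complement of the CREB-binding core TGACG, 34 bases before the start, and the other windows shown hold no match. Another start of Pde8b has a match past it, so the contrast between these windows depends on the starts shown. Which start is used in this tissue was not measured.
Pde8b: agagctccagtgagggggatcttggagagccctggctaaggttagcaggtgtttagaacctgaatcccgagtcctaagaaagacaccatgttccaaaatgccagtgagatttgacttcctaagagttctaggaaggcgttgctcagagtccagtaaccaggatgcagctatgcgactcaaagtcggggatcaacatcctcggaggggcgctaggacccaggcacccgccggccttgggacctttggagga
Pde4b: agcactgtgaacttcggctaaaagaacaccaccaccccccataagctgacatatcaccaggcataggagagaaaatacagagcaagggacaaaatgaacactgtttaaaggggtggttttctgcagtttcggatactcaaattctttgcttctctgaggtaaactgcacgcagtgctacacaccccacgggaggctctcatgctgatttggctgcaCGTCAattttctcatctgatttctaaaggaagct
Pde1c: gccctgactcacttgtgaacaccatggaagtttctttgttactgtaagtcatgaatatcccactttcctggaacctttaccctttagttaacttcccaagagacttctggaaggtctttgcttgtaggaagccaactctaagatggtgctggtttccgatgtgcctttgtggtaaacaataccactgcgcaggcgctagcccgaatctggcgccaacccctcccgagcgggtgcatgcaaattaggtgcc

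Promoter windows of 250 bases before to 50 bases after a start were held for 24 of the 32 members, 48 windows in all, and were searched on both strands. The core TGACG, which is contained in the full cAMP response element TGACGTCA, was in 8 of the 48 member windows (16.7%), beside 20.8% of 32851 windows of all genes. The members with a match were Adcy7, Adcy9, Pde1a, Pde2a, Pde4a, Pde4b, Pde8a and Pde8b, and the Pde8b match lies 38 bases past another of its starts. The full element was in 0 of 48 member windows, beside 1.79% of all windows. CAAGGTCA, a site for SF-1, the factor encoded by Nr5a1, was in 1 member window, beside 1.56% of all windows. That match stands 175 bases before a start of Adcy1 (chr11:7063258-7063265, plus strand).
Adcy1: CAAGGTCA
GGTCA and TGACC with any 3 bases between them, an oestrogen response element, was in 1 member window, beside 0.07% of all windows. It stands 17 bases past a start of Pde10a (chr17:8850002-8850014, plus strand), and the capitals mark the match.
Pde10a: GGTCAACCTGACC
A match describes these letters only and names no bound factor.

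Among the other cAMP-specific phosphodiesterases, Pde4b and Pde7b were called higher in VMHpvlm. Pde4b belongs to the PDE4 family, the target of the inhibitor rolipram, and is abundant in brain. It had 1006, 951 and 1037 normalised read counts in VMHpvlm, against 800.3, 886 and 852 in VMHpvll, in the library order F19, F20 and KH_161103. The areas did not overlap, and the F20 pair was the closest. The mean was 998 ± 43.8 in VMHpvlm and 846 ± 43.2 in VMHpvll (SD, n = 3 each), 1.18-fold, with a limma log2 difference of 0.24 (95% interval 0.12 to 0.36) and a Benjamini-Hochberg adjusted p of 0.0021. Pde7b, a PDE7 enzyme with strong expression in striatum, had 459, 476 and 539.5 in VMHpvlm, against 405, 387 and 440.03 in VMHpvll. The KH_161103 library was the highest within each area, and the areas did not overlap. Its means were 492 ± 42.4 in VMHpvlm and 411 ± 26.9 in VMHpvll (SD, n = 3 each), 1.20-fold, with a limma log2 difference of 0.26 (95% interval 0.10 to 0.41) and an adjusted p of 0.0117 (Benjamini-Hochberg). Pde4b lies on chromosome 4 (mm10, 102087543 to 102607259, plus strand) and Pde7b on chromosome 10 (20398004 to 20725078, minus strand). Both calls depended on the libraries kept: the limma adjusted p of Pde4b was 0.0537 without the F19 pair and 0.0721 without the KH_161103 pair, and that of Pde7b was 0.143 without the KH_161103 pair. Without the pair block the limma adjusted p of Pde7b was 0.0666, and DESeq2 on recovered whole reads gave 0.0962 for Pde4b and 0.243 for Pde7b.

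The remaining members of these families were not called. Pde8a, the nearest relative of Pde8b, had 122, 108 and 102 normalised read counts in VMHpvlm, against 147, 104 and 134 in VMHpvll, and the areas overlapped. Its limma log2 difference was -0.20, with a 95% interval of -0.49 to 0.08. The intervals were -0.14 to 0.22 for Pde4a, -0.24 to 0.03 for Pde4d and -0.14 to 0.26 for Pde7a, each with 0 inside. Pde4c, at 3 to 6 whole reads in VMHpvlm and 4 to 12 in VMHpvll, was too low to be tested. Of the 8 cAMP-specific members, 7 were tested. By limma 3 (42.9%) were called higher in VMHpvlm, beside 10.5% of all tested genes, and 0 were called lower, beside 9.48%. Whether so small a class differs from these shares was not tested. At an unadjusted p below 0.05 the 7 also gave 3, edgeR gave 3 and DESeq2 gave 1, each higher in VMHpvlm. For scale, the gene at place 4359 of all 14522 tested genes in order of limma p had an unadjusted p of 0.0512.

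Dividing by annotated exon length put the members on 1 scale, normalised read counts per kb. The length is the union of all annotated exons of a gene, so levels compared between genes depend on the annotation. Pde8b reached 5.0, 5.1 and 5.7 times the per-kb level of Pde8a in the F19, F20 and KH_161103 libraries of VMHpvlm, against 2.1, 3.3 and 2.6 times in those of VMHpvll. The ratio of Pde4b to Pde4d, also per kb, was 1.57, 1.56 and 1.86 in VMHpvlm and 1.29, 1.31 and 1.31 in VMHpvll. Neither ratio overlapped between the areas, whereas that of Pde7b to Pde7a did. Summed over the 8 cAMP-specific phosphodiesterases, the level was 448, 428.5 and 446 per kb in VMHpvlm and 352, 369.6 and 376.5 in VMHpvll. The means were 441 ± 10.6 in VMHpvlm and 366 ± 12.5 in VMHpvll (SD, n = 3 each), 1.20-fold. Without Pde8b the sum was 298 ± 5.31 in VMHpvlm and 283 ± 8.12 in VMHpvll, 1.05-fold. The cAMP-specific enzymes held 35.9% to 37.1% of all catalytic phosphodiesterase signal per kb in VMHpvlm and 32.1% to 33.0% in VMHpvll. Of the same total, the other 7 cAMP-specific enzymes held 24.4% to 24.7% in VMHpvlm and 25.0% to 25.4% in VMHpvll. No test is given for these sums and ratios, which hold the called members.

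The enzymes that act on both cAMP and cGMP held called genes in both directions. Pde10a, a phosphodiesterase best known from the medium spiny neurons of the striatum, had 734, 769 and 896 normalised read counts in VMHpvlm, against 564, 618 and 643 in VMHpvll. Every VMHpvlm value was above every VMHpvll value, and the KH_161103 library was the highest within each area. The limma log2 difference was 0.39 (95% interval 0.26 to 0.52), 1.31-fold between means of 799.5 ± 84.9 in VMHpvlm and 608 ± 40.3 in VMHpvll (SD, n = 3 each), with an adjusted p of 5.91e-06 (Benjamini-Hochberg). Pde11a was the least abundant called member, at 60.9, 65.2 and 53.6 in VMHpvlm, against 27.5, 47.7 and 25.6 in VMHpvll, which rest on 45 to 59 whole reads per VMHpvlm library and 25 to 32 per VMHpvll library. The F20 library of VMHpvll came nearest to the VMHpvlm values. The means of Pde11a were 59.9 ± 5.89 in VMHpvlm and 33.6 ± 12.2 in VMHpvll (SD, n = 3 each), 1.79-fold. Its limma log2 difference, 0.87 (95% interval 0.41 to 1.33), was the largest fitted difference of a called member, with an adjusted p of 0.00408 (Benjamini-Hochberg). Pde10a lies on chromosome 17 (mm10, 8525372 to 8986648, plus strand) and Pde11a on chromosome 2 (75989141 to 76338774, minus strand), and the exons of both are free of overlap with other annotated genes. Without the F19 pair the limma adjusted p of Pde11a was 0.06, without the KH_161103 pair it was 0.0668, and DESeq2 gave 0.147.

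Pde1c, a calmodulin-activated enzyme that hydrolyses cAMP and cGMP with like affinity, had 469, 423 and 469 normalised read counts in VMHpvlm, against 635, 555 and 635 in VMHpvll. All 3 VMHpvlm values lay below all 3 VMHpvll values, and the pair differences were alike at -0.44, -0.39 and -0.44 (log2). Its limma log2 difference was -0.42 (95% interval -0.57 to -0.28), with an adjusted p of 9.64e-06 (Benjamini-Hochberg) and means of 454 ± 26.1 in VMHpvlm and 609 ± 46.1 in VMHpvll (SD, n = 3 each). Pde1c lies on chromosome 6 (mm10, 56069804 to 56569103, minus strand). The other calmodulin-activated enzymes were more abundant and were not called. Pde1a had 1285, 1369 and 1233 in VMHpvlm and 1266, 1375 and 1248 in VMHpvll, with a 95% interval of -0.10 to 0.10 for its log2 difference. Pde1b, at 868, 826 and 908 in VMHpvlm and 729.9, 855 and 839.9 in VMHpvll, had an interval of -0.02 to 0.23. It was called without the F20 pair, with a log2 difference of 0.18 and a limma adjusted p of 0.0443. Per kb, Pde1c stood at 0.109, 0.093 and 0.114 of Pde1a in VMHpvlm and at 0.150, 0.121 and 0.153 of Pde1a in VMHpvll.

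Pde2a, which cGMP activates, was measured at 1131, 1119 and 1204 normalised read counts in VMHpvlm and 1191, 1062 and 1189 in VMHpvll, and the areas overlapped. Its log2 difference had a 95% interval of -0.10 to 0.11. Reads of Pde2a may include those of Gm45837, which overlaps 64.3% of its exon length. Pde3b, a cGMP-inhibited enzyme that insulin signalling activates in fat and liver, had an interval of -0.25 to 0.14. All 8 dual-substrate members were tested. By limma 2 (25%) were called higher in VMHpvlm and 1 (12.5%) lower, beside 10.5% and 9.48% of all tested genes. Their summed level was 693 ± 11.6 per kb in VMHpvlm and 671 ± 10.9 per kb in VMHpvll (SD, n = 3 each), 1.03-fold, and their share of catalytic phosphodiesterase signal was 56.4% to 58.0% in VMHpvlm and 59.4% to 60.0% in VMHpvll. Per kb the ratio of Pde10a to Pde2a was 0.311, 0.329 and 0.356 in VMHpvlm, against 0.227, 0.279 and 0.259 in VMHpvll.

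Of the cGMP-specific enzymes, Pde9a was the most abundant and was not called. Pde9a, which has the highest affinity for cGMP of the family, was measured at 264, 236 and 304 normalised read counts in VMHpvlm and 280.3, 292 and 299 in VMHpvll. The areas overlapped and the 95% interval of the log2 difference was -0.32 to 0.07. The photoreceptor enzymes had too few reads to test: Pde6a had 1 to 3 whole reads per VMHpvlm library and 0 to 1 per VMHpvll library, Pde6b had 0 to 2 in both areas, and Pde6c had 0 in all 6 libraries. Pde6d, whose product is a prenyl-binding chaperone and not an enzyme, had an interval of -0.21 to 0.39. Of the 5 cGMP-specific members 2 were tested and 0 were called by limma, beside 20% of all tested genes. At an unadjusted p below 0.05 there were 0, with 0 called by edgeR and 0 by DESeq2. Their summed level was 80.2 ± 7.18 per kb in VMHpvlm and 86.9 ± 0.408 per kb in VMHpvll (SD, n = 3 each).

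**Figure D2:**
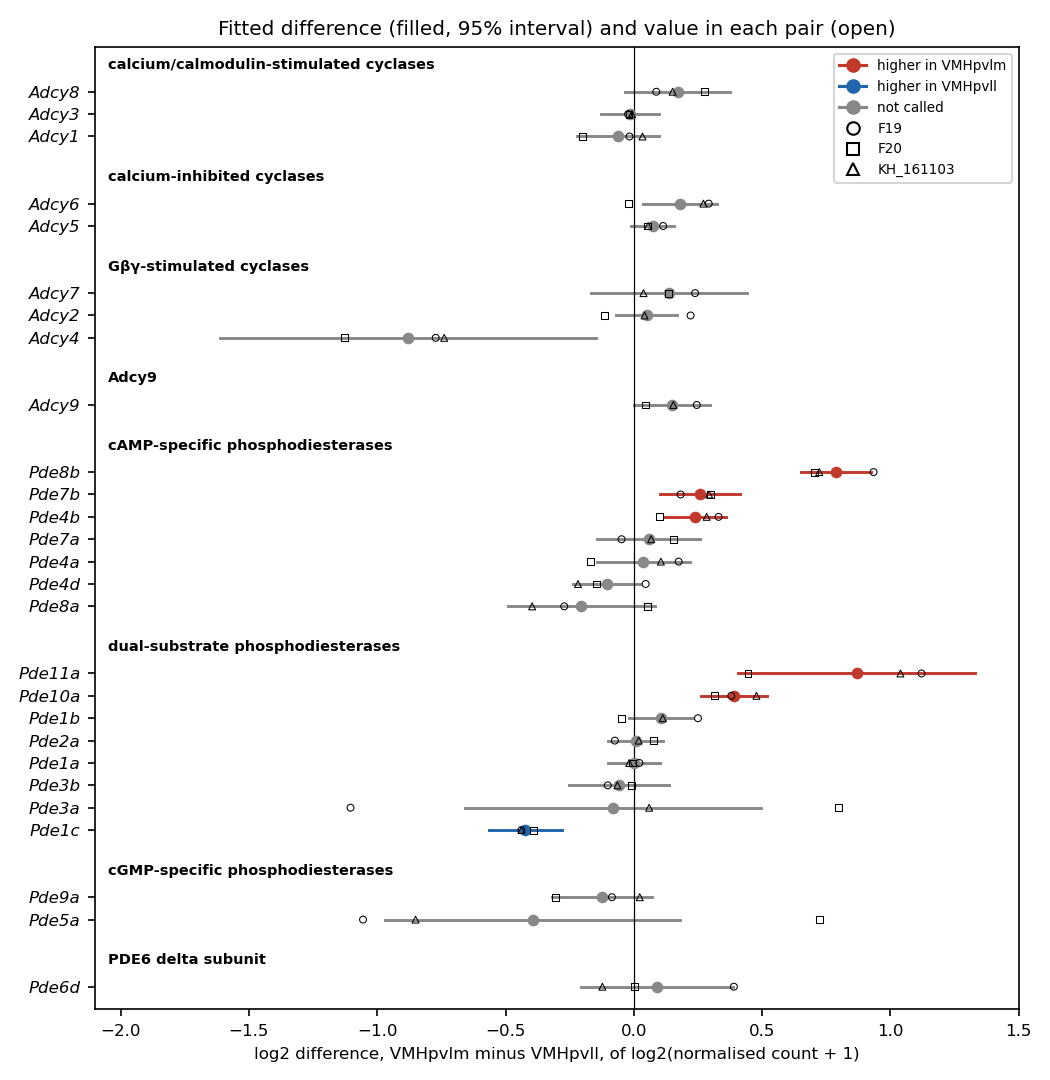
Limma log2 difference, VMHpvlm minus VMHpvll, of the 27 tested members (x axis) with its 95% interval, grouped by enzyme class, with open symbols for the value of each pair. Among the called members the 3 open symbols lie on 1 side of 0, while those of Pde3a and Pde5a lie on both sides.

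No adenylyl cyclase was called in either direction. By limma 0 of 9 tested cyclases were called, beside 20% of all tested genes, and so few genes do not show that the cyclases were equal. At an unadjusted p below 0.05 there were 2 (Adcy4 and Adcy6), with 1 called by edgeR (Adcy6) and 0 by DESeq2. Over all 14522 tested genes, number 4359 in order of limma p (Adcy9) had an unadjusted p of 0.0512. Adcy5, which calcium inhibits and which is the main cyclase of the striatum, had the highest per-kb level of all members. It was measured at 2437, 2479 and 2526 normalised read counts in VMHpvlm, against 2251, 2390.3 and 2430.2 in VMHpvll. These values did not overlap, yet the log2 difference was 0.07 with a 95% interval of -0.01 to 0.16. Adcy6, its close relative, had 664, 572 and 609 in VMHpvlm, against 542, 581 and 505 in VMHpvll. The F20 pair ran opposite to the other pairs. Its log2 difference was 0.18 (95% interval 0.04 to 0.33), with a limma adjusted p of 0.0721 over all pairs and of 0.00341, at a difference of 0.28, without the F20 pair. The edgeR adjusted p for Adcy6 was 0.0474. Groups that did not overlap with VMHpvlm higher were seen for 6 of 27 members, Adcy5 and the 5 called ones, beside 14.5% of all tested genes. Pde1c was the 1 member that did not overlap in the other direction, beside 13.5% of all tested genes. In every pair 9 of 27 members were higher in VMHpvlm, beside 24.9% of all tested genes, and 4 of 27 were lower in VMHpvlm, beside 23.2% of all tested genes.

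The cyclases classed as calcium and calmodulin-stimulated were Adcy1, Adcy3 and Adcy8. Adcy1 had 412, 407 and 419 normalised read counts in VMHpvlm and 417, 468 and 409 in VMHpvll, with a 95% interval of -0.22 to 0.10 for its log2 difference. Adcy3, the cyclase of neuronal primary cilia and olfactory neurons, had 943, 970.2 and 914 in VMHpvlm and 957, 983 and 918 in VMHpvll, with an interval of -0.13 to 0.10. Adcy3 shares 22.1% of its exon length with Cenpo. Adcy8, at 280.4, 260 and 226 in VMHpvlm and 264, 214 and 204 in VMHpvll, was higher in VMHpvlm in 3 of 3 pairs, but its interval of -0.03 to 0.38 held 0. Summed per kb, these 3 cyclases were at 215 ± 6.66 in VMHpvlm and 215 ± 8.89 in VMHpvll (SD, n = 3 each). Adcy2 and Adcy7, which G protein beta-gamma subunits stimulate, had intervals of -0.07 to 0.17 and of -0.17 to 0.44. Adcy9, a widely expressed membrane cyclase, had 486, 541 and 539.5 in VMHpvlm and 410.02, 524 and 485 in VMHpvll, with a log2 difference of 0.15 and an interval of -0.0008 to 0.30. Adcy10, the soluble cyclase that bicarbonate activates, had 2, 2 and 1 whole reads in VMHpvlm and 0 in each VMHpvll library, too few to test. All 10 cyclases summed to 1016 ± 12.2 per kb in VMHpvlm and 971 ± 40.2 per kb in VMHpvll, and these sums overlapped.

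Ordered by per-kb level, the members had the same top 4 in both areas, while Pde8b stood differently among its neighbours. The top 4 were Adcy5, Adcy2, Pde1a and Pde2a in both, at 345 ± 6.21, 245 ± 13.4, 215.5 ± 11.4 and 187 ± 7.53 per kb in VMHpvlm, and at 328 ± 13.1, 237 ± 16.4, 216 ± 11.4 and 187 ± 12 per kb in VMHpvll (SD, n = 3 each). Adcy2 and Pde1a lay within their SDs of each other in VMHpvll. Exons of Pde2a overlap those of Gm45837 over 64.3% of their length, and those of Adcy3 overlap Cenpo over 22.1%, so both places are less sure. In VMHpvlm Pde8b was number 7 at 143 ± 6.41 per kb, within the SDs of Adcy3 above it and clear of Adcy9 below it at 101 ± 6.02. In VMHpvll it was number 8 at 82.9 ± 4.40 per kb, within the SDs of its neighbours Adcy9, at 91.0 ± 11.2, and Pde9a, at 82.1 ± 2.72. Pde1c was number 22 in VMHpvlm at 22.6 ± 1.30 per kb and number 20 in VMHpvll at 30.3 ± 2.30 per kb. All 21 catalytic phosphodiesterases summed to 1214 ± 22.6 per kb in VMHpvlm and 1124 ± 23.1 per kb in VMHpvll (SD, n = 3 each), 1.08-fold. Without Pde8b these sums were 1071 ± 21.3 per kb in VMHpvlm and 1041 ± 18.8 per kb in VMHpvll, 1.03-fold.

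**Figure D3:**
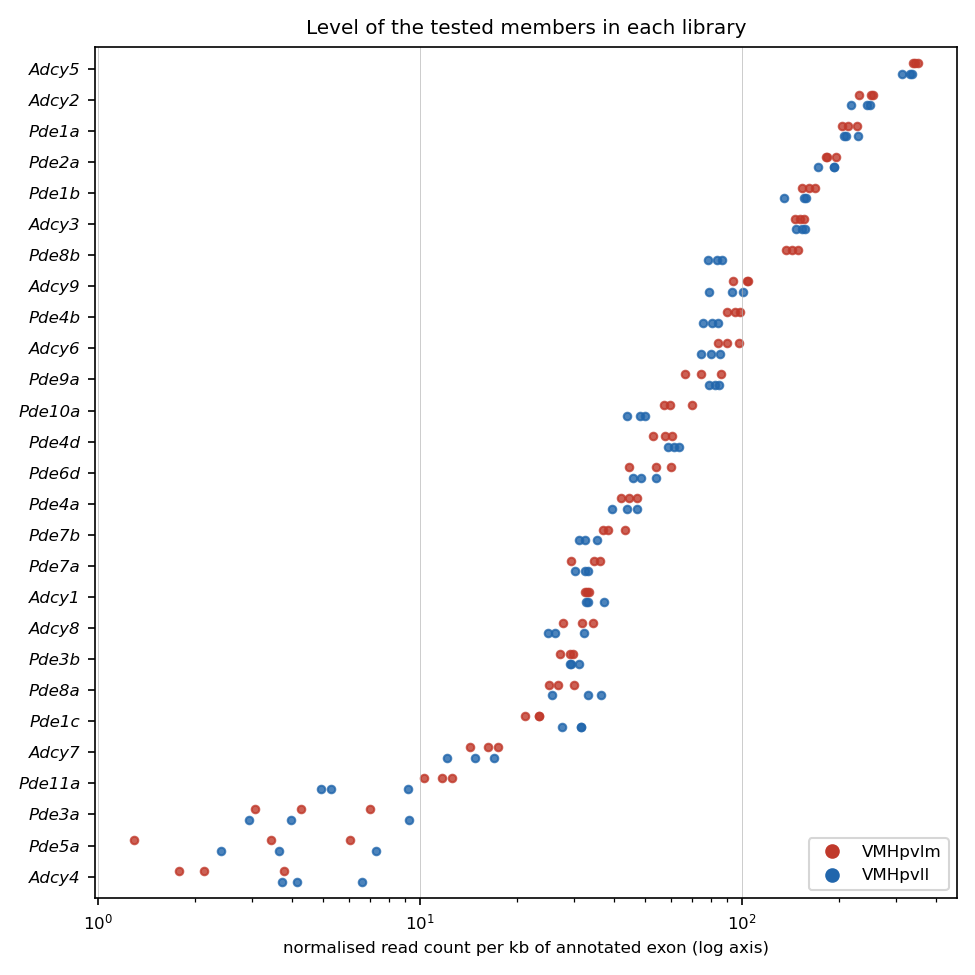
Normalised read count per kb of annotated exon (x axis, log scale) of the 27 tested members, 1 point per library, VMHpvlm in red above VMHpvll in blue, sorted by the VMHpvlm mean. Pde8b stands out among the abundant members, at 143 ± 6.41 per kb in VMHpvlm and 82.9 ± 4.40 per kb in VMHpvll (SD, n = 3 each), and the lowest rows have the widest spread.

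The tested members with the lowest per-kb levels in both areas were Pde3a, Pde5a and Adcy4, which are known from vessel walls or smooth muscle. Pde3a, a cGMP-inhibited enzyme, had 54.2, 88.8 and 39.1 normalised read counts in the F19, F20 and KH_161103 libraries of VMHpvlm, against 118, 50.6 and 37.4 in those of VMHpvll. Pde5a, the target of sildenafil, had 33.9, 59.7 and 12.7 in VMHpvlm, against 71.5, 35.7 and 23.7 in VMHpvll. Both were lower in VMHpvlm in the F19 pair and higher there in the F20 pair. The 95% intervals of the log2 difference were -0.66 to 0.50 for Pde3a and -0.97 to 0.18 for Pde5a, and Pde5a was called lower in VMHpvlm without the F20 pair (-0.95, limma adjusted p = 0.0269). Adcy4 had 17.6, 8.33 and 9.99 in VMHpvlm, against 30.8, 19.4 and 17.3 in VMHpvll, from 6 to 13 whole reads per VMHpvlm library and 13 to 28 per VMHpvll library. It was lower in VMHpvlm in 3 of 3 pairs, with a log2 difference of -0.88 (95% interval -1.61 to -0.15) and a limma adjusted p of 0.0851 that did not pass. Of 10 endothelial and mural markers, 6 were called lower in VMHpvlm and 0 higher by limma, beside 9.48% and 10.5% of all tested genes. Of these markers DESeq2 called 2 lower and 0 higher. Their summed level was 1833, 1974 and 1527 in VMHpvlm and 3027, 2390.3 and 2358 in VMHpvll. The smooth muscle marker Acta2, named after its values were seen, had 56.9, 157 and 30.0 in VMHpvlm, against 439, 152 and 21.9 in VMHpvll. The F19 library of VMHpvll was the highest for Acta2, Pde3a and Pde5a. It was also the highest for Pecam1, Cldn5, Flt1, Tek, Cdh5, Pdgfrb and Rgs5, but not for Kdr or Kcnj8. In the KH_161103 pair Acta2 was higher in VMHpvlm and Pde5a lower, and Pdgfrb and Rgs5 were lower there in 3 of 3 pairs. The part of vessel cells in these values was not tested.

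**Figure D4:**
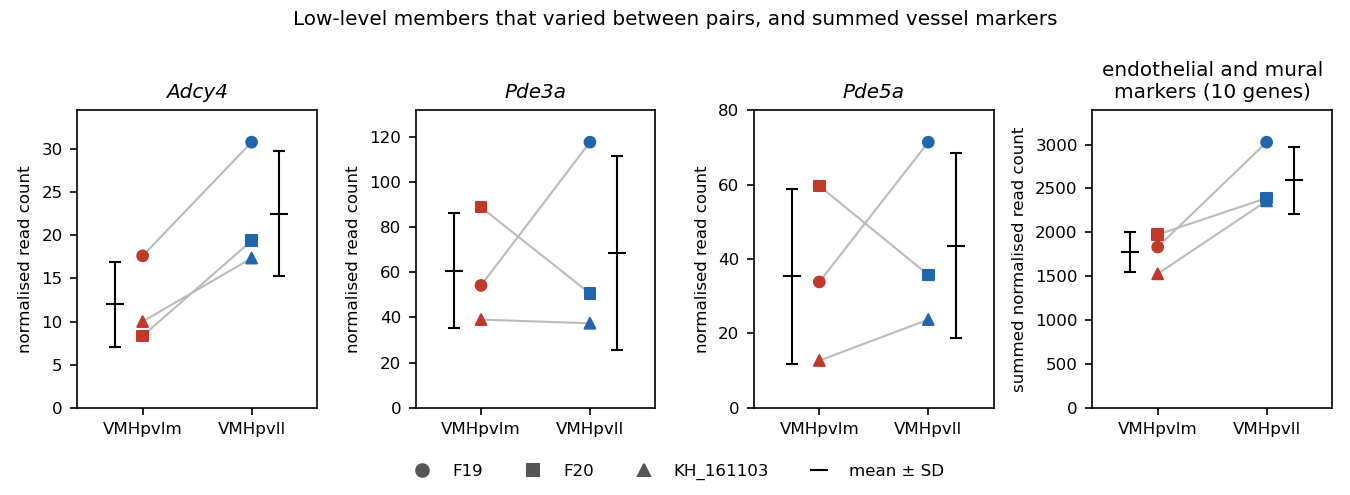
Normalised read counts (y axes, from 0) of Adcy4, Pde3a and Pde5a and the summed count of 10 endothelial and mural markers in VMHpvlm (red) and VMHpvll (blue), 1 point per library, with mean ± SD and a line between libraries of the same title name (n = 3 per area). The F19 library of VMHpvll is the highest in all 4 panels, and for Pde3a and Pde5a the F20 line crosses the F19 line.

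Markers of other cell types also differed between the areas. Over all tested genes, 10.5% were called higher and 9.48% lower in VMHpvlm by limma. Of 8 pan-neuronal markers, 5 were called higher in VMHpvlm and 0 lower, with sums of 33143 to 36235 normalised read counts in VMHpvlm and 27855 to 31592 in VMHpvll. Slc17a6, the gene behind the Cre driver, had 4666 ± 139 in VMHpvlm and 4946 ± 17.1 in VMHpvll (SD, n = 3 each) and was not called (limma adjusted p = 0.086). Nr5a1, the defining factor of the ventromedial hypothalamus, had 308 ± 19.5 in VMHpvlm and 31.5 ± 6.73 in VMHpvll. Of 5 markers of ventromedial hypothalamic neurons 4 were called higher in VMHpvlm, with sums of 2308 to 2491 in VMHpvlm and 1349.9 to 1534 in VMHpvll. Of 7 tested GABAergic markers 7 were called lower in VMHpvlm, with sums of 2267 to 2470 in VMHpvlm and 3698 to 4295 in VMHpvll. In VMHpvlm 9 of 10 oligodendrocyte markers, 5 of 9 astrocyte markers and 4 of 5 oligodendrocyte precursor markers were called lower and 0 were called higher by limma. The summed levels were 11972 to 13697, 29855 to 32243 and 1567 to 1786 for these lists in VMHpvlm, against 16138 to 17374, 35142 to 40111 and 1931 to 2046 in VMHpvll. Without the F19 pair 3 astrocyte, 0 oligodendrocyte precursor and 3 endothelial and mural markers were called lower, and without the KH_161103 pair 1 oligodendrocyte precursor marker was called lower and 3 pan-neuronal markers were called higher. DESeq2 called 6 oligodendrocyte, 3 astrocyte, 0 oligodendrocyte precursor and 6 GABAergic markers lower in VMHpvlm. It called 2 pan-neuronal markers and 3 markers of ventromedial hypothalamic neurons higher there. Of 10 microglial markers 0 were called by limma, with 1 at an unadjusted p below 0.05, 0 by edgeR and 0 by DESeq2. No listed marker was at 0 in all libraries. The part of these cell types in the values of the cyclases and phosphodiesterases was not tested.

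Upstream of the cyclases, 5 of 7 G protein alpha subunits were called by limma, beside 20% of all tested genes. DESeq2 called 3 of the 7, beside 671 genes higher and 565 lower in VMHpvlm among the 14522 tested. Neither this list nor those that follow were tested as sets. Gnas, which encodes the stimulatory subunit, was at 12868 ± 579 normalised read counts in VMHpvlm and 11417 ± 855 in VMHpvll (SD, n = 3 each), with a limma log2 difference of 0.17. Gnal, the stimulatory subunit of olfactory and striatal neurons, was lower in VMHpvlm, at 1238 ± 82.4 in VMHpvlm and 1666 ± 88.4 in VMHpvll (-0.43, Benjamini-Hochberg adjusted p = 7.06e-09). The inhibitory subunit Gnai2 was also lower in VMHpvlm, at 2265 ± 77.3 in VMHpvlm and 2734 ± 45.1 in VMHpvll (-0.27). Gnaz, another inhibitory subunit, was higher in VMHpvlm (0.20), with 1604 ± 146 in VMHpvlm and 1399 ± 186 in VMHpvll. Gnai1 was the remaining call, also higher in VMHpvlm. The list thus held 3 called higher and 2 called lower in VMHpvlm, with a median log2 difference of 0.08. Those higher in VMHpvlm numbered 1 without the F19 pair, 3 without the F20 pair and 1 without the KH_161103 pair, and the limma adjusted p of Gnaz was 0.276 in the last case. Exons of Gnas overlap those of other genes, among them Nespas, over 22.0% of their length.

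Downstream, the protein kinase A subunits held calls in both directions. Prkacb, a catalytic subunit, had 7015, 7218 and 7175 normalised read counts in VMHpvlm, against 5518, 5661 and 5538 in VMHpvll, with a limma log2 difference of 0.36 and a Benjamini-Hochberg adjusted p of 4.67e-12. The 3 VMHpvlm values stood well apart from the 3 VMHpvll values. The regulatory subunits Prkar2a (1744 ± 83.0 in VMHpvlm and 2027 ± 29.2 in VMHpvll, -0.22) and Prkar2b (537 ± 47.2 in VMHpvlm and 622 ± 58.1 in VMHpvll, -0.21) were lower in VMHpvlm, and Prkar1b (5046 ± 187 in VMHpvlm and 4719 ± 162 in VMHpvll, 0.10) was higher there. Of 9 subunits and inhibitors, 2 were called higher and 2 lower in VMHpvlm, beside 10.5% and 9.48% of all tested genes. Their median log2 difference was 0.01. The calls of Prkar1b and Prkar2b were lost without the F19 pair (limma adjusted p = 0.361 and 0.0752) and without the KH_161103 pair (0.279 and 0.163).

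A-kinase anchoring proteins hold protein kinase A and phosphodiesterases at set places in the cell. Of their 10 tested genes, 5 were called higher and 2 lower in VMHpvlm, beside 10.5% and 9.48% of all tested genes. Their median log2 difference was 0.07. Akap12 was at 1552 ± 205 normalised read counts in VMHpvlm and 1132 ± 126 in VMHpvll (0.45), and Akap13 at 891 ± 44.8 in VMHpvlm and 671 ± 5.17 in VMHpvll (0.41). Akap5, an anchor at excitatory synapses, was lower in VMHpvlm, at 123 ± 38.0 in VMHpvlm and 202 ± 32.4 in VMHpvll (-0.74), as was Akap11 (6495 ± 269 in VMHpvlm and 7540 ± 270.2 in VMHpvll, -0.22). All 4 were called without any 1 of the pairs by limma, while those called higher numbered 3 without the F19 pair. Of the other proteins that bind cyclic nucleotides, 9 were tested, 2 were called higher in VMHpvlm and 0 lower, with a median of -0.01. These were the channel subunits Cngb1 (56.4 ± 13.3 in VMHpvlm and 31.3 ± 4.22 in VMHpvll, 0.81) and Hcn2 (682 ± 49.1 in VMHpvlm and 601 ± 28.5 in VMHpvll, 0.18), and neither was called by limma without the F19 pair or by DESeq2.

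Among 8 CREB factors and coactivators, 2 were called higher in VMHpvlm and 0 lower, beside 10.5% and 9.48% of all tested genes. Their median log2 difference was 0.04. The coactivator Crtc1 was at 1727 ± 101 normalised read counts in VMHpvlm and 1289 ± 69.4 in VMHpvll (0.42, limma Benjamini-Hochberg adjusted p = 2.25e-09), and Creb1 at 609 ± 13.3 in VMHpvlm and 533 ± 43.2 in VMHpvll (0.19, adjusted p = 0.0446). Creb1 was not called without the F20 pair (0.0811) or without the KH_161103 pair (0.406). Of 9 genes known to respond to cAMP in neurons, 0 were called higher and 1 lower in VMHpvlm by limma, with a median of 0.03. EdgeR called 1 and DESeq2 0, and 5 of 9 had an unadjusted p below 0.05. For scale, the gene at place 4359 of all 14522 tested genes in order of limma p had an unadjusted p of 0.0512. The called gene was Sik1, a kinase that restrains CREB coactivators, at 173 ± 21.1 in VMHpvlm and 231 ± 17.2 in VMHpvll (-0.41), and its limma adjusted p was 0.177 without the KH_161103 pair.

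On the cGMP side, 10 genes of cGMP synthesis and protein kinase G were tested, with a median log2 difference of -0.16. Of these, 3 were called higher and 4 lower in VMHpvlm, beside 10.5% and 9.48% of all tested genes. Nos1, the neuronal nitric oxide synthase, was at 3040 ± 188 normalised read counts in VMHpvlm and 5410.1 ± 479.5 in VMHpvll (-0.83, limma Benjamini-Hochberg adjusted p = 9.42e-05). Gucy1a3, a subunit of the guanylyl cyclase that nitric oxide activates, was higher in VMHpvlm, at 569 ± 33.3 in VMHpvlm and 398 ± 30.5 in VMHpvll (0.52). The natriuretic peptide receptor Npr2 (372 ± 46.1 in VMHpvlm and 511 ± 32.3 in VMHpvll, -0.46) and the kinase Prkg1 (614 ± 17.6 in VMHpvlm and 773 ± 13.9 in VMHpvll, -0.33) were lower in VMHpvlm. These 4 were called by limma without any 1 of the pairs, while those called higher numbered 1 without the KH_161103 pair. Pde12 and Pde4dip, which carry like names but fall outside the rule, were tested and 0 were called by limma, with 1 at an unadjusted p below 0.05, 0 by edgeR and 0 by DESeq2.

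**Figure D5:**
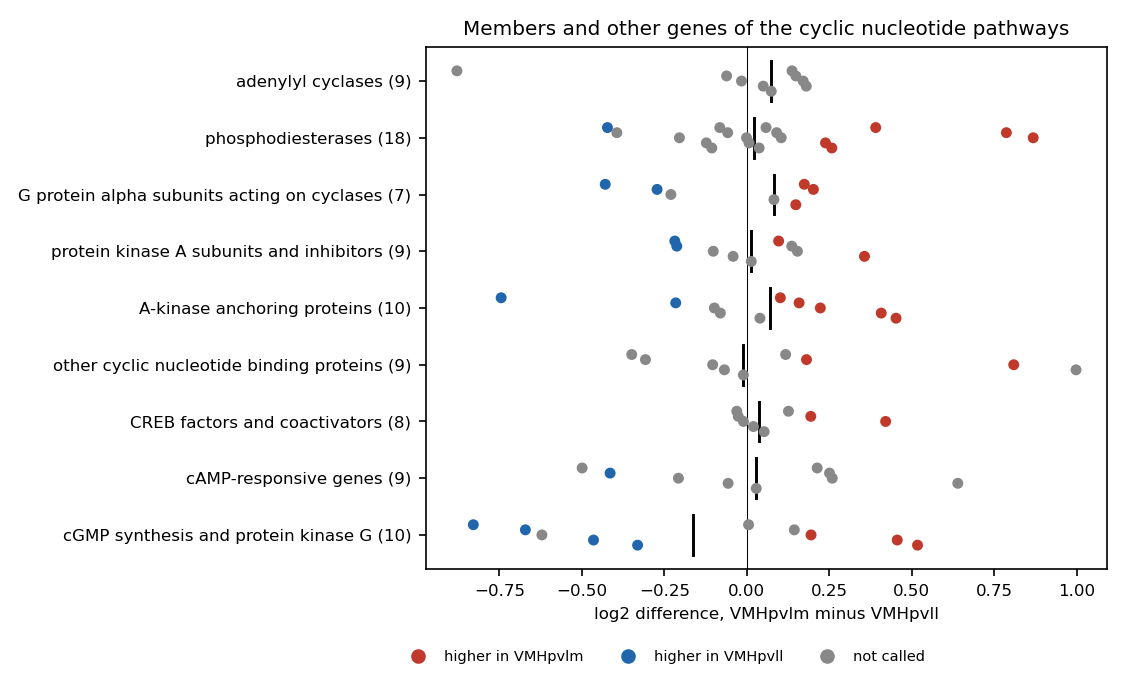
Limma log2 difference, VMHpvlm minus VMHpvll (x axis), of each tested gene of the cyclases, the phosphodiesterases and 7 lists of the same pathways, 1 point per gene, with a bar at each list's median and the number of genes in brackets. The 9 cyclases hold no called gene, and the phosphodiesterases and 4 of the 7 lists hold called genes on both sides of 0. Of all tested genes 20% were called.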

How the data were processed

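RNA of 6 libraries was analysed from 1 deposited table. The submitters' processing notes name HISAT2, featureCounts and the build mm10. The annotation, the scaling tool and whether strand was used in counting are not stated there. The values deposited by the authors are a normalised signal, gene counts divided by 1 factor per library: 100% of non-zero values were whole multiples of 1 read, within 0.05 reads, which returned whole reads. Limma 3.58.1 in R 4.3.3 was run on log2(value + 1) for genes with a mean of at least 10, with the shared title name as a block. It used eBayes with trend and robust, two-sided tests and Benjamini-Hochberg adjustment over 14522 genes. With 2 residual degrees of freedom, a prior of 39.9 (median) carries most of the variance estimate, and the log scale understates differences of low genes. The pairs were set by the titles and not by a test. Deviations from the area mean correlated at 0.255, 0.244 and 0.363 between libraries of the same title name, and at -0.247 to 0.0067 between different names. Each mean is over 3 libraries, so positive values for like names force lower ones for unlike names. EdgeR 4.0.16 and DESeq2 1.42.0 on the whole reads, other pseudocounts, filters and scalings, no pair block and left-out libraries were alternatives. The limma step was tested on simulated data. Libraries of 1 area differed by more than sampling noise. Counting error falls with depth and limits Adcy4, Pde11a and the untested members. Positions, exon lengths and overlaps come from GENCODE M21 (mm10), promoters from RefSeq (GRCm38.p6). Members and lists were chosen with earlier results of these data known. Every member is accounted for; of each pathway list at most 4 called genes, by smallest p, are given with levels, and genes beyond these were named after their values were seen. Of the marker lists, those for glutamatergic neurons (3 tested, 1 called higher and 0 lower in VMHpvlm) and for tanycytes and ependyma (4 tested, 0 higher, 2 lower) complete the set.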

Additional observations from a re-analysis of the deposited data

How the results depend on the processing

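Pde8b was called higher in VMHpvlm under every alternative run, and no called member changed direction under any of them. Pde10a and Pde1c lost the call only with a variance prior without trend and robust (limma adjusted p = 0.0868 and 0.0669), which left 1 member higher in VMHpvlm and 0 lower, and 189 genes higher and 233 lower in all. DESeq2 called 2 members higher, and 671 genes higher and 565 lower. Without the replicate block that pairs the libraries, 937 genes were higher and 863 lower in VMHpvlm, and Pde7b was the 1 member that lost its call. Leaving out a pair or a library gave 911 to 1528 genes higher and 830 to 1388 lower, 2 to 7 members higher and 1 to 2 lower, and a median member log2 difference of 0.032 to 0.085. Leaving out 1 library with the block kept gives the same differences as leaving out its pair. With libraries scaled to the same total, Adcy6 was called as well (0.20, adjusted p = 0.0349). Members that were not called and lay near 0 changed sign: Adcy3 (0.0073) and Pde1a (0.023) with the same total, Pde1a (0.00066) with the same upper quartile and Pde2a (-0.0059) with TMM factors. With pairs or libraries left out, the log2 differences ran from -0.11 to 0.0084 for Adcy1, -0.036 to 0.13 for Adcy2, -0.012 to 0.0076 for Pde1a, -0.028 to 0.047 for Pde2a, -0.52 to 0.43 for Pde3a, -0.031 to 0.14 for Pde4a and -0.059 to 0.20 for Pde6d. A minimum mean of 50 left Pde11a, Pde5a and Adcy4 untested. The causes of these changes were not tested. Depth limits Adcy4, Pde11a and the 5 untested members, and 3 libraries per area limit every value.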
